A study of Oryza sativa Japonica Group with 6 samples.

Results

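Trehalose, galactinol and proline are small molecules that many plants build up when cells are cooled or lose water. The 7 rice genes described here encode enzymes that make them: OsTPP1 (LOC_Os02g44230), OsTPP2 (LOC_Os10g40550) and OsTPS1 (LOC_Os05g44210) for trehalose, the galactinol synthase loci LOC_Os03g20120 and LOC_Os07g48830 (GolS below), and P5CS1 (LOC_Os05g38150) and P5CS2 (LOC_Os01g62900) for proline. They were chosen by locus identifier from 55986 loci with a deposited value. The rule used no levels, but the choice was made with earlier results of these data known. All 7 were above the filter on low values described below, as were 22841 loci in all. The first digits of an identifier give the chromosome, so the genes lie on chromosomes 2, 10, 5, 3, 7, 5 and 1 in the order given.

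The libraries came from early rice seedlings, whose buds measured some 5 mm, chilled at 2 °C for 3 h. ZH17, the control, is the nontransformed japonica variety Zhonghua17, and OEZ is the same variety carrying the IL112 allele of OsLTPL159, a lipid transfer protein gene, under the cauliflower mosaic virus 35S promoter, which is active in most plant tissues. Each genotype was represented by 3 biological replicates, each a pool of seedlings. The labels call OEZ a line, the design text speaks of lines, and how many transformation events the pools hold is not given in the sources used here. All 6 pools were chilled, so the response of these genes to cold itself was not analysed here, and the comparison asks whether their transcript levels in chilled seedlings differed between the genotypes.

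Trehalose is made in a pair of steps. A trehalose-6-phosphate synthase (TPS) joins glucose units into trehalose 6-phosphate, a signal of sucrose supply in plants, and a trehalose-6-phosphate phosphatase (TPP) removes its phosphate. Galactinol synthase couples galactose to myo-inositol, the first committed step towards raffinose and its relatives, and its genes are known for induction by cold and drought in Arabidopsis. A P5CS enzyme reduces glutamate to the precursor of proline and is regarded as the controlling step of proline synthesis. OsTPP1 is known from rice as a gene whose transcript rises early in the cold.

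The deposited values are FPKM, fragment counts scaled to the length of the transcript and to the size of the library, which allows levels to be compared between genes. Values of a genotype are listed in the order of replicates 1, 2 and 3. FPKM give no fragment counts, so absolute depth is unknown. The spacing of the lowest values put relative depth between 1.0 and 1.32, with ZH17 replicate 1 as 1. OsLTPL159 was at 131 to 141 FPKM in the ZH17 pools and at 2502 to 2539.9 FPKM in the OEZ pools, so the libraries matched their labels. Grain markers were uneven among the pools. The 7 grain markers were 4 alpha-amylases, 1 glutelin and 2 prolamins. They summed to 69.5 to 186 FPKM in ZH17 and to 193 FPKM in OEZ replicate 2. In OEZ replicates 1 and 3 they summed to 1.89 and 2.05 FPKM, and 3 of the 7 were listed at 0. The alpha-amylases LOC_Os06g49970 and LOC_Os08g36910 did not follow the sum. They were at 0.744 and 0.981 FPKM in OEZ replicate 1, 0.355 and 0.653 in replicate 2, and 0.800 and 0.650 in replicate 3. Of 11 chlorophyll A-B binding protein genes, markers of green shoot tissue, 10 were lower and 1 higher in OEZ past the thresholds given below, and their summed level was 10131 to 10765 FPKM in ZH17 and 5748 to 6783 FPKM in OEZ. Both marker lists were taken from genes that the study selected on these same libraries, and the part of tissue make-up in the values below was not tested. In whole seedlings, fewer cells of a type and less RNA per cell cannot be told apart.

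None of the 7 genes changed past the thresholds of the study, a fold change of at least 1.5 with an adjusted p under 0.05. The study applied these thresholds to a Cuffdiff test, which was not run here, so its calls need not match those given here. The test here was limma on log2(FPKM + 0.1), a linear model per gene with variances moderated across genes. Benjamini-Hochberg adjustment was over the 22841 genes that averaged 0.5 FPKM or more. Of those genes, 2.98% passed, 1.56% as higher and 1.42% as lower in OEZ. At an unadjusted p under 0.05 there was 1 of the 7 genes, GolS LOC_Os03g20120, against 23.2% of all tested genes. The log2 fold changes of the 7 genes ran from -0.44 to 0.25 with a median of 0.02, and the median over all tested genes was also 0.02. Adjusted p values lay between 0.15 and 0.90. With 0.1 added, changes of genes near 0 FPKM are understated. The p values measure the spread between pools of seedlings.

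**Figure D1:**
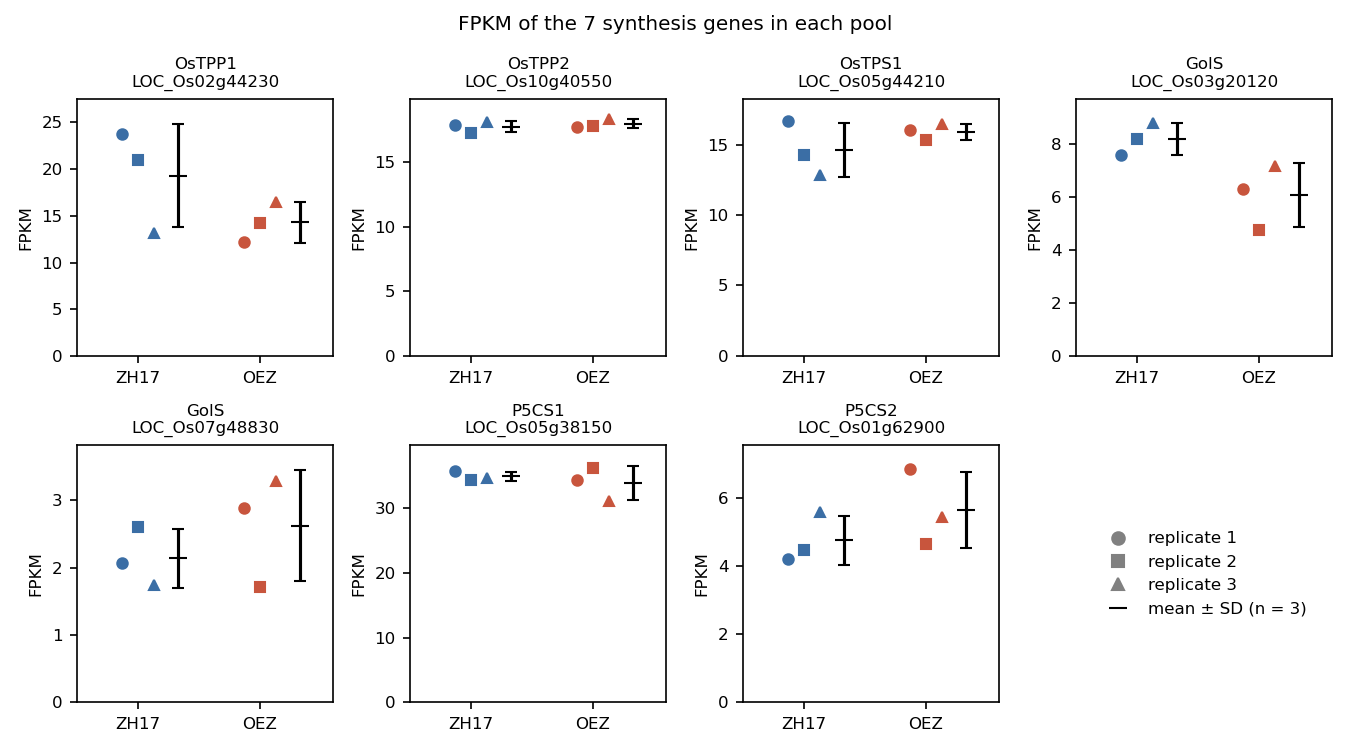
FPKM (vertical axes, each from 0) of the 7 genes in the 3 ZH17 pools (blue) and the 3 OEZ pools (red), with circles, squares and triangles for replicates 1, 2 and 3 and bars for the mean ± SD. GolS LOC_Os03g20120 is the gene whose OEZ pools, 4.78 to 7.17 FPKM, all lie below its ZH17 pools, 7.60 to 8.80 FPKM.

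The trehalose genes were expressed at similar levels to each other, and none passed the test. OsTPP1, a phosphatase, had 23.8, 21.0 and 13.1 FPKM in the ZH17 pools. In the OEZ pools it had 12.2, 14.2 and 16.5 FPKM. Replicates 1 and 2 of ZH17 stood above the other 4 pools, ZH17 replicate 3 lay within the OEZ range, and the groups overlapped. The means were 19.3 ± 5.53 FPKM in ZH17 and 14.3 ± 2.16 FPKM in OEZ (SD, n = 3). A two-sided exact permutation test gave p = 0.3, where 0.1 is the least that 3 pools against 3 can give. The log2 fold change of -0.40 had a standard error of 0.22 and a limma adjusted p of 0.34, and its 95% interval runs from -0.93 to 0.13, that is from a fold of 0.526 to 1.09 in OEZ over ZH17. The estimate depended on single ZH17 pools. It was -0.23 without ZH17 replicate 1 (limma adjusted p = 0.61) and -0.32 without ZH17 replicate 2 (limma adjusted p = 0.57). Without ZH17 replicate 3 the log2 fold change of OsTPP1 was -0.65 with a limma adjusted p of 0.038, past both thresholds. That setting called 967 genes in all against 681 with the 6 pools. Over its alternatives the limma adjusted p of OsTPP1 ranged from 0.038 to 0.73.

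OsTPP2, which encodes another phosphatase, was among the steadiest genes of the data. Its level was 17.9, 17.3 and 18.1 FPKM in the ZH17 pools and 17.8, 17.8 and 18.4 FPKM in the OEZ pools. The 6 pools lay in 1 narrow band in which the genotypes overlapped, and the highest was 1.06 times the lowest. Its log2 fold change of 0.02 had a standard error of 0.06 and a limma adjusted p of 0.90, with a 95% interval from -0.12 to 0.16. The standard deviation between replicates of a genotype on the log2 scale was 0.03 for OsTPP2, smaller than in all but 1.40% of the tested genes. For OsTPP1 it was 0.35, a spread larger than that of 84.9% of them.

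OsTPS1, the synthase that precedes both phosphatases in the pathway, showed a small difference within the replicate spread. It had 16.7, 14.3 and 12.9 FPKM in the ZH17 pools and 16.0, 15.3 and 16.4 FPKM in the OEZ pools. The OEZ pools lay inside the wider ZH17 range. The means were 14.6 ± 1.93 and 15.9 ± 0.569 FPKM (SD, n = 3). For OsTPS1, the log2 fold change of 0.13 had a standard error of 0.10, a 95% interval of -0.11 to 0.37 and a limma adjusted p of 0.49. It depended on single ZH17 pools, at 0.04 without ZH17 replicate 3 and 0.23 without ZH17 replicate 1 (limma adjusted p = 0.18). Summed over the 3 trehalose genes, the level was 51.7 ± 7.20 FPKM in ZH17 and 48.2 ± 2.78 FPKM in OEZ. OsTPP1 supplied 26.5% to 40.7% of that sum, the widest range of the 3 genes.

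The galactinol synthase genes had the lowest summed level of the 3 pathways, 10.3 ± 0.604 FPKM in ZH17 and 8.72 ± 2.03 FPKM in OEZ, and fold changes of opposite sign that did not pass the test. GolS LOC_Os03g20120, the more abundant locus, had 7.60, 8.21 and 8.80 FPKM in the ZH17 pools. In the OEZ pools it had 6.33, 4.78 and 7.17 FPKM. Every OEZ pool was below every ZH17 pool, with a gap of 0.429 FPKM between the groups, an arrangement found in 13.2% of all tested genes in this direction and in 1 of the 7. The means were 8.20 ± 0.601 FPKM and 6.09 ± 1.21 FPKM (SD, n = 3), and a two-sided exact permutation test gave the least possible p, 0.1. The log2 fold change of -0.44 (standard error 0.15) had an unadjusted p of 0.024 and a limma adjusted p of 0.15, and thus did not pass. Its 95% interval, -0.80 to -0.08, reaches past a 1.5-fold difference on the lower side. OEZ replicate 2 was the lowest pool for GolS LOC_Os03g20120 and the pool of OEZ in which the summed grain markers were as high as in ZH17. Without OEZ replicate 2 the log2 fold change was -0.28, and with OEZ replicate 2 as the only OEZ pool it was -0.76 (limma adjusted p = 0.26), a fit that assumes that the lone pool varies like the ZH17 pools.

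GolS LOC_Os07g48830 was the least abundant of the 7 genes. It had 2.07, 2.61 and 1.75 FPKM in the ZH17 pools and 2.88, 1.71 and 3.29 FPKM in the OEZ pools. OEZ replicates 1 and 3 were the highest pools and OEZ replicate 2 the lowest, so the groups overlapped. For GolS LOC_Os07g48830, the log2 fold change of 0.25 had a standard error of 0.27, a 95% interval of -0.38 to 0.89 and a limma adjusted p of 0.62. The value of GolS LOC_Os07g48830 was 0.52 without OEZ replicate 2 (unadjusted p = 0.047, limma adjusted p = 0.26), 0.40 without ZH17 replicate 2, 0.12 without ZH17 replicate 3, 0.16 without OEZ replicate 1 and 0.07 without OEZ replicate 3. It turned to -0.29 when OEZ replicate 2 alone stood for OEZ. The 2 high pools are those with low summed grain markers, and the part of grain tissue in the level of this gene was not tested. The standard deviation between replicates was 0.39 on the log2 scale, larger than that of 87.3% of the tested genes.

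The proline genes were unequal in level, and neither passed the test between the genotypes. P5CS1, the most abundant of the 7 genes, had 35.7, 34.4 and 34.6 FPKM in the ZH17 pools. In the OEZ pools it had 34.4, 36.1 and 31.1 FPKM. OEZ replicates 2 and 3 were the highest and the lowest of the 6 pools. The log2 fold change of -0.05 had a standard error of 0.07 and a limma adjusted p of 0.73, with a 95% interval from -0.21 to 0.12, a fold of 0.864 to 1.09. It became 0.01 without OEZ replicate 3, so that no direction can be given.

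P5CS2, the second gene for the same step, had 4.21, 4.48 and 5.58 FPKM in the ZH17 pools and 6.85, 4.64 and 5.46 FPKM in the OEZ pools. OEZ replicate 1 was the highest pool and the other 5 were mixed between the genotypes. The means were 4.76 ± 0.724 and 5.65 ± 1.12 FPKM (SD, n = 3). For P5CS2, the log2 fold change of 0.23 had a standard error of 0.17, a 95% interval of -0.17 to 0.64 and a limma adjusted p of 0.46. Leaving out 1 pool gave 0.09 for P5CS2 without OEZ replicate 1, 0.15 without ZH17 replicate 1, 0.35 without ZH17 replicate 3 and 0.37 without OEZ replicate 2, and with OEZ replicate 2 as the only OEZ pool it was -0.03. Together P5CS1 and P5CS2 summed to 39.7 ± 0.718 FPKM in ZH17 and 39.5 ± 2.60 FPKM in OEZ, and P5CS1 gave 83.4% to 89.4% of the sum.

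**Figure D2:**
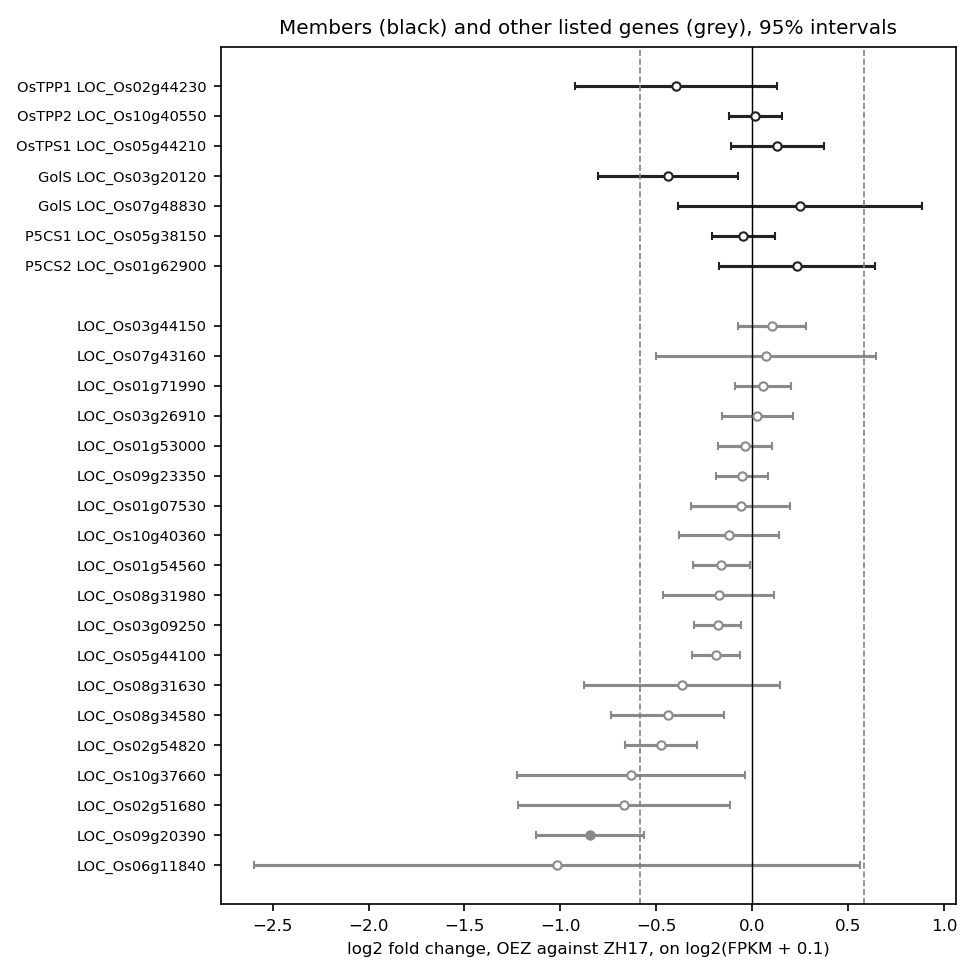
Log2 fold change of OEZ against ZH17 (horizontal axis) with 95% intervals from limma for the 7 genes (black) and 19 other tested genes of the listed pathways (grey), where a filled symbol marks a gene past the thresholds and dashed lines mark a fold change of 1.5. The intervals of OsTPP2, OsTPS1 and P5CS1 lie between the dashed lines, and LOC_Os09g20390 is the filled symbol.

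How large a difference the data leave possible varied between the genes. The 95% intervals of OsTPP2, OsTPS1 and P5CS1 lay wholly inside a fold change of 1.5 in both directions, which was so for 61.8% of all tested genes. Those of OsTPP1, both GolS loci and P5CS2 reached past it, so in these 4 genes the 3 pools per genotype leave a difference of that size possible in 1 direction. The 3 genes with narrow intervals included the most abundant, P5CS1, and 2 genes of intermediate level.

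Ordered by mean FPKM over the 6 pools, the genes were P5CS1 (34.4), OsTPP2 (17.9), OsTPP1 (16.8), OsTPS1 (15.3), GolS LOC_Os03g20120 (7.15), P5CS2 (5.20) and GolS LOC_Os07g48830 (2.38). P5CS1 was above 81.5% of all tested genes in level and GolS LOC_Os07g48830 above 21.8%. Neighbours in this order were compared within pools by exact two-sided sign-flip permutation tests on log2(FPKM + 0.1), 6 pairs of genes in all. The pairs were set by the mean levels in these same pools, so the p values are not those of pairs fixed beforehand. P5CS1 exceeded OsTPP2 by 1.92 times, OsTPS1 exceeded GolS LOC_Os03g20120 by 2.15 times and P5CS2 exceeded GolS LOC_Os07g48830 by 2.17 times, each in 6 of 6 pools. These 3 comparisons had p = 0.031, the smallest the exact permutation test can give with 6 pools, and an adjusted p of 0.063 over the 6 pairs, so none passed the correction. Among OsTPP2, OsTPP1 and OsTPS1, neighbours were not separated from each other. Both pairs had the same order in 4 of 6 pools and p = 0.41 in the exact permutation test. GolS LOC_Os03g20120 was above P5CS2 in 5 of 6 pools (exact permutation test, p = 0.094, adjusted p = 0.14).

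**Figure D3:**
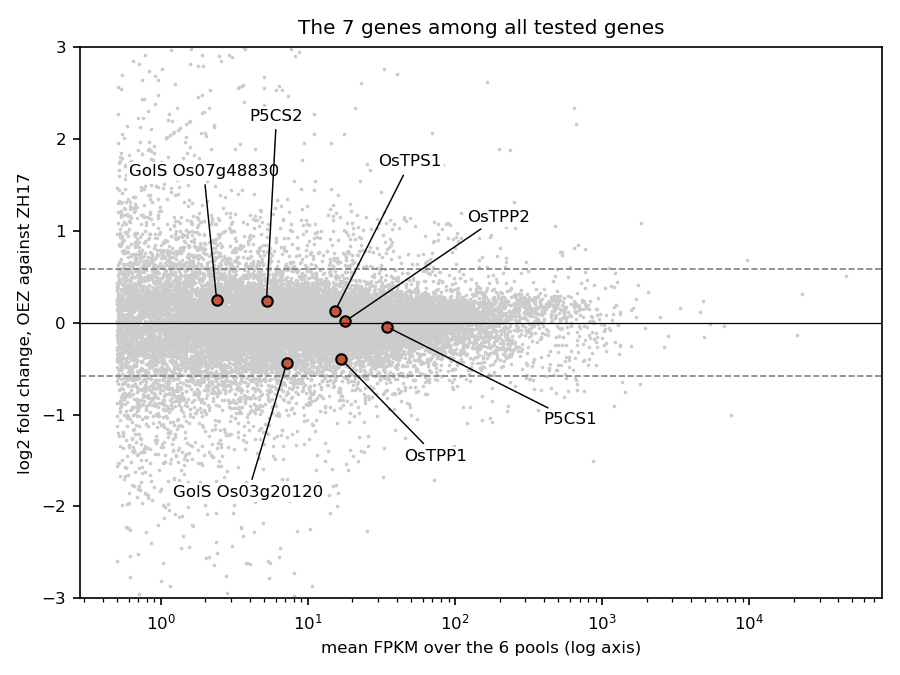
Mean FPKM over the 6 pools (horizontal, log axis) and log2 fold change of OEZ against ZH17 (vertical) of the tested genes (grey, 86 genes lie outside the plotted range of 3 log2 units) with the 7 genes in red. Dashed lines mark a fold change of 1.5, and all 7 genes lie between them, from -0.44 to 0.25.

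The balance between genes for the same step was compared as the ratio of FPKM within each pool, in 3 ratios. The ratio of GolS LOC_Os07g48830 to GolS LOC_Os03g20120 was 0.272, 0.318 and 0.199 in the ZH17 pools. In the OEZ pools it was 0.455, 0.357 and 0.459. Every OEZ pool had a higher share of the less abundant locus than every ZH17 pool, also OEZ replicate 2, in which both loci were at their lowest. The log2 ratio was higher by 0.69 in OEZ, a fold of 1.61 (two-sided exact permutation test, p = 0.1, which is the least possible, adjusted p = 0.3 over the 3 ratios), and it stayed between 0.51 and 0.83 with 1 pool left out. With OEZ replicate 2 as the only OEZ pool it was 0.47.

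The ratio of OsTPP1 to OsTPP2 was 1.33, 1.21 and 0.726 in the ZH17 pools and 0.685, 0.801 and 0.897 in the OEZ pools. OsTPP1 was the more abundant phosphatase in ZH17 replicates 1 and 2 and OsTPP2 in the other 4 pools. The groups overlapped, with a difference of -0.41 on the log2 scale (exact two-sided permutation test, p = 0.3). P5CS1 was at 8.47, 7.67 and 6.21 times P5CS2 in the ZH17 pools and at 5.02, 7.79 and 5.69 times in the OEZ pools. These ratios overlapped too, with a difference of -0.28 on the log2 scale (exact two-sided permutation test, p = 0.3). The P5CS1 to P5CS2 difference ranged from -0.46 without OEZ replicate 2 to -0.15 without OEZ replicate 1, and it was 0.08 with OEZ replicate 2 as the only OEZ pool, so no direction can be given.

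**Figure D4:**
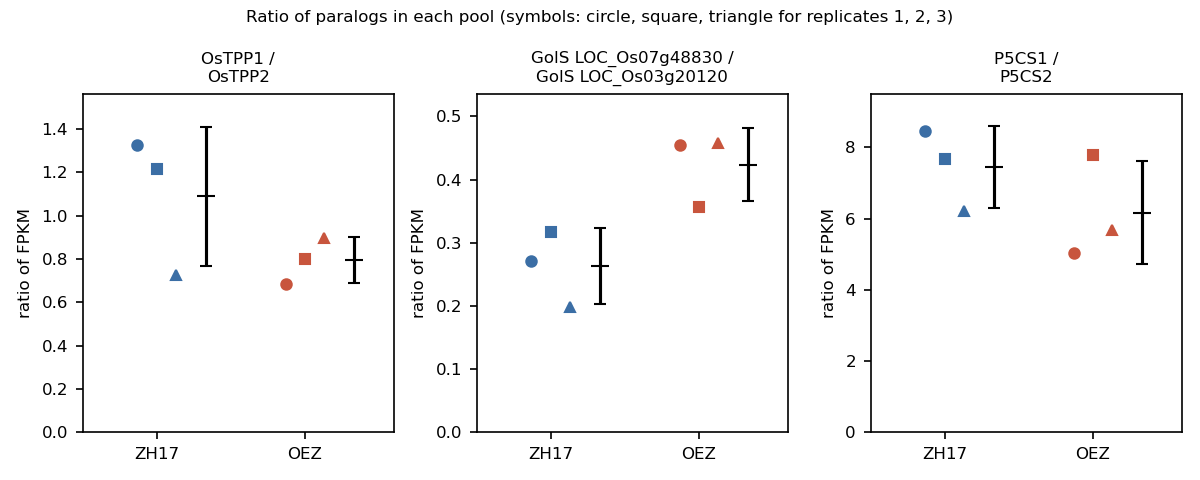
Ratio of FPKM between genes for the same step (vertical axes from 0) in each pool of ZH17 (blue) and OEZ (red), with bars for the mean ± SD of 3 pools. In the middle panel the OEZ pools, 0.357 to 0.459, lie above the ZH17 pools, 0.199 to 0.318, and in the other panels the groups overlap.

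A list of 23 further loci of these pathways was drawn up, since the deposited files hold identifiers without descriptions. Of these loci, 2 appear with a description in the study's table of genes called on these same libraries. The other 21 were assigned from general knowledge of the rice genome. The list was drawn up with earlier results of these data known, so it is not blind to the values. Values were at hand for 22 of the loci, and 3 of these fell below the filter, which left 19 tested: 14 listed under trehalose, 2 under galactinol and raffinose, and 3 under proline. LOC_Os09g20390, listed under trehalose as a phosphatase gene, passed the thresholds as lower in OEZ, where 1.42% of all tested genes passed in that direction. No listed gene passed as higher. LOC_Os09g20390 had 7.08, 7.44 and 6.26 FPKM in the ZH17 pools and 3.65, 4.30 and 3.50 FPKM in the OEZ pools. Its groups did not overlap, and its log2 fold change of -0.85 had a standard error of 0.12 and a limma adjusted p of 0.012. The log2 fold change of LOC_Os09g20390 stayed between -0.93 and -0.79 with 1 pool left out, but the adjusted p rose to 0.058 without ZH17 replicate 2, 0.054 without OEZ replicate 1 and 0.057 without OEZ replicate 3. With OEZ replicate 2 as the only OEZ pool it was -0.67 (limma adjusted p = 0.32).

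Of the 19 tested genes of the list, 15 had a negative log2 fold change, with a median of -0.18 against 0.02 over all tested genes. Without the 2 genes of the study's table, 13 of 17 were negative, with a median of -0.16. A difference between the pathways was not tested. Negative were 12 of 14 genes under trehalose (median -0.28), 2 of 2 under galactinol and raffinose (median -0.12) and 1 of 3 under proline (median 0.06). Among the trehalose members, which are not in these counts, OsTPP1 was negative, and OsTPP2 and OsTPS1 were at 0.02 and 0.13. The list holds genes of breakdown as well as synthesis. Under trehalose it includes further genes of the TPS family, LOC_Os02g54820 among them. Whether these encode active synthases was not examined here. Every OEZ pool was below every ZH17 pool in 7 of the 19, an arrangement that 13.2% of all tested genes had. Every OEZ pool was above every ZH17 pool in 1, as in 3645 of the 22841 tested genes. Counting both directions, 29.2% of all tested genes did not overlap. Of the 7, 6 were listed under trehalose and 1 under galactinol and raffinose, and the 1 above was listed under proline. Neither of the 2 genes of the study's table was among the 7. LOC_Os02g54820, named after its values were seen, had 51.0 ± 5.24 FPKM in ZH17 and 36.5 ± 0.385 FPKM in OEZ (SD, n = 3) with a limma adjusted p of 0.019, but its log2 fold change of -0.48 is under the 1.5-fold threshold. Over its alternatives the limma adjusted p of LOC_Os02g54820 ranged from 0.012 to 0.39. The study's gene table describes LOC_Os10g37660 as a trehalase precursor, an enzyme that splits trehalose into glucose. LOC_Os10g37660 had 2.51, 3.55 and 4.64 FPKM in the ZH17 pools and 2.79, 1.93 and 1.97 FPKM in the OEZ pools, with overlapping groups and a log2 fold change of -0.63 (limma adjusted p = 0.19). LOC_Os06g11840, described there as a trehalose phosphatase, was low and variable, at 0.412, 0.964 and 1.46 FPKM in the ZH17 pools and 0.483, 0.807 and 0.0938 FPKM in the OEZ pools. The groups overlapped and its limma adjusted p was 0.41. That table lists both loci because the study called them on these libraries, so their inclusion here is not independent of the values.

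Patterns over the 6 pools were compared between each of the 7 genes and 25 others, the remaining members and the tested genes of the list, by the root mean square difference of log2 values centred on each gene's mean. The gene most like GolS LOC_Os03g20120 was LOC_Os08g34580, at a difference of 0.13, and the gene most like OsTPP1 was LOC_Os08g31980, at 0.21. LOC_Os01g53000 was nearest to both steady genes, at 0.032 for OsTPP2 and 0.080 for P5CS1. The root mean square variation of these genes about their own means was smaller than that, 0.027 and 0.070, so the small differences reflect flat levels and show no shared pattern over the pools. For the remaining genes the nearest were LOC_Os03g44150 to OsTPS1 (0.10), LOC_Os01g71990 to P5CS2 (0.18) and LOC_Os01g07530 to GolS LOC_Os07g48830 (0.26). The own variation of these members was 0.13, 0.23 and 0.34, not far above the differences. For GolS LOC_Os03g20120 and OsTPP1 it was 0.28 and 0.35. Each nearest gene was picked as the smallest of 25 differences, and a shared pattern was not tested. No member was nearest to another member.

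**Figure D5:**
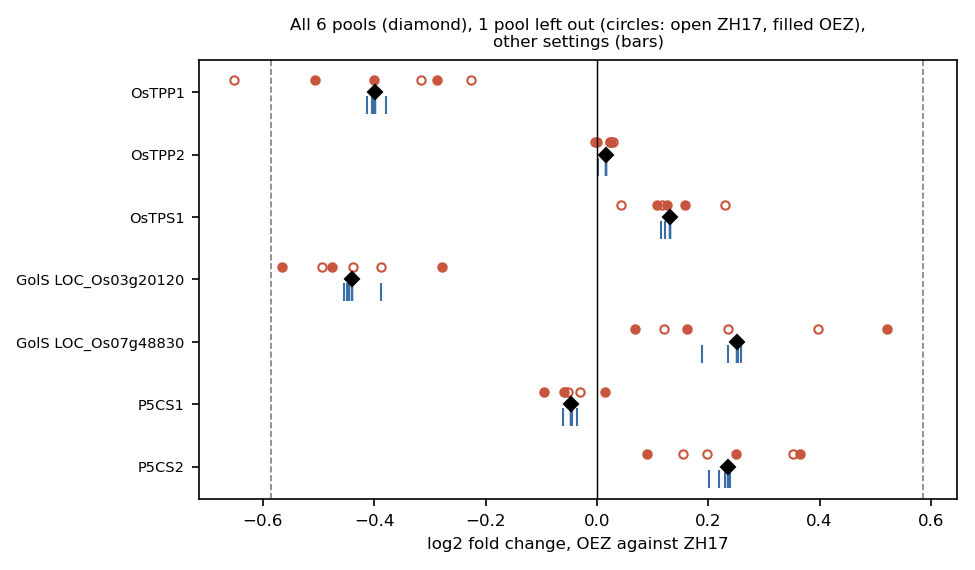
Log2 fold change of OEZ against ZH17 (horizontal axis) of the 7 genes with all 6 pools (diamonds), with 1 pool left out (circles, open for a ZH17 pool and filled for an OEZ pool) and under the other planned settings (bars), with dashed lines at a fold change of 1.5. The open circle of OsTPP1 at -0.65, without ZH17 replicate 3, is the value that lies past a dashed line.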

How the data were processed

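The authors aligned read pairs to the Nipponbare genome (IRGSP-1.0, MSU loci) by TopHat2 with default settings and deposited FPKM from Cuffdiff, 1 value per locus and library. Tool versions and the scaling between libraries are not given in the sources used here. From these, log2(FPKM + 0.1) of genes averaging 0.5 FPKM or more was compared in limma 3.58.1 (R 4.3.3) with a variance trend and Benjamini-Hochberg adjustment. The fit was tested on simulated data with 22552 genes in all. It called 72 of 100 genes changed by 1 log2 unit and 43 of 100 changed by 0.7. Changes just past the threshold were thus often missed there. These rates depend on the share of changed genes, and recovery in the deposited data was not tested. Permutation tests used Python 3.11.15 with scipy 1.17.1. The members and lists were chosen with earlier results of these data known. Genes were named by rule: the 7 members, listed genes past the thresholds, the 2 listed genes of the study's table, OsLTPL159 and nearest patterns. LOC_Os02g54820 is outside the rule and was chosen after its values were seen. Alternatives were pseudocounts of 1 and 0.01, other filters, 2 scalings, no variance trend, other fold criteria, the replicate number as a block, and pools left out. Reads shared between near-identical copies, gene length and sequence were not analysed here.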

Additional observations from a re-analysis of the deposited data

How the results depend on the processing

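Members past the thresholds stayed at 0 under every alternative except without ZH17 replicate 3, where OsTPP1 passed (log2 fold change -0.65), giving a range of 0 to 1 with 1 pool left out. With 1 pool left out, the log2 fold change of OsTPP1 ran from -0.65 to -0.23, of OsTPP2 from -0.0032 to 0.029 and of P5CS1 from -0.095 to 0.014, the latter pair changing sign without ZH17 replicate 2 and without OEZ replicate 3. After the data had been seen, OEZ replicates 1 and 3, with grain markers near 0, were left out together: GolS LOC_Os07g48830 turned to -0.29, P5CS1 to 0.050, P5CS2 to -0.026 and the P5CS1 to P5CS2 ratio to 0.076, 4 genes were called in all and 0 of the list. The cause was not tested. OsTPP1, OsTPS1, GolS LOC_Os03g20120 and the ratios of the TPP and GolS genes kept their direction under every alternative run for them, with OsTPS1 between 0.044 and 0.23 and GolS LOC_Os03g20120 between -0.76 and -0.28. With 1 pool left out, GolS LOC_Os07g48830 ran from 0.069 to 0.52 and P5CS2 from 0.089 to 0.37. The neighbour comparisons gave 0 passing pairs at pseudocounts of 1 and 0.01 too, settings also added later. A pseudocount does not alter which gene is higher in a pool, and 3 pairs crossed between pools. The count of 0 therefore could not change, and these settings are no check of the order.

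All genes past the thresholds numbered 681, and 1371 without a fold criterion, 290 when a 2-fold change was required, and 327 to 967 with 1 pool left out. Of the list, 1 gene passed, and under the same settings 2, 0 and 0 to 1. A fit with replicate numbers as a block passed 321 genes, 201 higher and 120 lower, no member among them. Deviations from the genotype means correlated at -0.06 to 0.03 between pools of the same number, so the numbers were not taken as pairs. GolS LOC_Os07g48830 could not be fitted at a filter of 5 FPKM. The depth of FPKM values is unknown, so no counting interval can be given.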
